A study of Homo sapiens with 4 samples.

Results

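Active promoters whose loop anchor lacks FLI1 were described in SMC1 HiChIP libraries of A673, a cell line of Ewing sarcoma with an EWS-FLI1 fusion. The authors' deposited table of 650 differential loops flags each anchor for a promoter, H3K27ac, FLI1 and CTCF, and 253 of its 1134 anchors were flagged for a promoter and for H3K27ac but not for FLI1. All high-confidence loops with one of these anchors were taken, which gave 1791 of 22680 loops (7.90%) at 253 of 17105 anchors. Of the 253 anchors, 144 carried the CTCF flag and 109 did not. The flags are yes or no, and the table that carries them lists loops with an adjusted p of up to 0.0998, so the genotype contrast helped to choose the anchors. Genotype values of these anchors are therefore a description. The rule used neither the CTCF flag nor the width nor the number of loops, but an anchor enters by holding a differential loop, so a wider anchor or one with more loops had more chances to enter. The other 881 anchors of the differential table, chosen by the same contrast, are therefore given beside the values.

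The libraries came from STAG2-null A673 cells (2 libraries) and from wild-type A673 cells (2 libraries). In HiChIP, DNA ends near each other in the nucleus are ligated, and an antibody then enriches the ends that carry a chosen protein. Here that protein was SMC1, part of the cohesin ring. Per the labels' protocols, Cas9-edited single cells were expanded into clones to give the STAG2-null cells, so a clone's own traits and the loss of STAG2 cannot be told apart. The labels do not state separate cultures for the libraries of a genotype, so p-values cover only the spread between libraries, and the spread between them may be technical. A library held 661881 to 765017 paired-end tags (PETs, each a sequenced contact between a pair of anchors). Loops of the 253 anchors held 13741 and 14077 PETs in STAG2-null libraries and 13359 and 14700 in wild-type libraries, between 1.92% and 2.02% of a library. Contacts do not measure transcripts, so neither the loss of STAG2 nor the Ewing sarcoma label could be checked by expression. None of the Ewing sarcoma markers CD99, NR0B1, NKX2-2, CCND1, PRKCB, LIPI, STEAP1, PAX7 and KDSR was placed at one of the 253 anchors.

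Acetylation of histone H3 at lysine 27 marks promoters and enhancers in use. Cohesin extrudes chromatin into loops and is often halted at sites where the zinc finger protein CTCF is bound, and STAG2 and its paralog STAG1 are alternative subunits of the complex. FLI1 antibody signal in Ewing sarcoma cells marks sites bound by the EWS-FLI1 fusion, which recognises ETS motifs. A promoter with acetylation and no FLI1 is thus an active promoter without detected binding of the fusion at that anchor.

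The deposited table names genes per loop, and 153 of the 253 anchors could be given their genes directly, 14 by elimination and 86 not at all. This placed 217 genes, with several genes at 37 anchors. Promoter sequences were taken from RefSeq on GRCh38.p14 by symbol, through 190 current and 15 older symbols, and 153 of the genes had one on the matching chromosome. Whether the RefSeq start lies inside the hg19 anchor was not checked. The CTCF core, spelled CC, any 3 bases, AG, any 2 bases, GGC on either strand, was found in 21 of 96 promoters at anchors with the CTCF flag (21.9%) and in 11 of 57 at anchors without it (19.3%), against 10.6% of 27305 RefSeq promoters of 300 bases. The ETS core CCGGAA on either strand was found in 25 of 96 and 11 of 57, against 17.6% of RefSeq promoters. Letters of the core were thus about as frequent in both sets, and a match is neither a bound site nor a cause.

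4 promoters with the CTCF core are shown, CEBPB (a leucine zipper factor) and FADS1 (a fatty acid desaturase) at anchors with the CTCF flag, and DAPK1 (a death-associated kinase) and CUX1 (a homeobox factor) at anchors without it. Each is the 250 bases before the RefSeq start, 5′ to 3′, at GRCh38.p14 chr20:50190333-50190582 on the plus strand, chr11:61817004-61817253 on the minus strand, chr9:87497617-87497866 on the plus strand and chr7:101815757-101816006 on the plus strand. Capitals mark matches to the CTCF core on either strand, and DAPK1 and CUX1 were placed at anchors without the CTCF flag.
CEBPB: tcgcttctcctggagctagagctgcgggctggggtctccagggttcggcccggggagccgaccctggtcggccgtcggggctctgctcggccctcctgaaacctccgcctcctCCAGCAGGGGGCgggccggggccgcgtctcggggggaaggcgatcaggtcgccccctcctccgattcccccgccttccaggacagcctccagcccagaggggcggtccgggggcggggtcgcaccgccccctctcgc
FADS1: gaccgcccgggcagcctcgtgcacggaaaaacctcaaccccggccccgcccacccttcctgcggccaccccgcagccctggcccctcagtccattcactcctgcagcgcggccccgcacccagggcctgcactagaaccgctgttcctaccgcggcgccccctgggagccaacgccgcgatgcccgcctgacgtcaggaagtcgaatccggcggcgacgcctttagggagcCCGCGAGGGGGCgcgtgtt
DAPK1: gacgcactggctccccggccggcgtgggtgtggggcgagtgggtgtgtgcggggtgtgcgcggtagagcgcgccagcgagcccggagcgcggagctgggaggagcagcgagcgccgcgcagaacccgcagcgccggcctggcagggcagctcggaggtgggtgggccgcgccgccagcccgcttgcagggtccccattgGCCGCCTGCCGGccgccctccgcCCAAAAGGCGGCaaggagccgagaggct
CUX1: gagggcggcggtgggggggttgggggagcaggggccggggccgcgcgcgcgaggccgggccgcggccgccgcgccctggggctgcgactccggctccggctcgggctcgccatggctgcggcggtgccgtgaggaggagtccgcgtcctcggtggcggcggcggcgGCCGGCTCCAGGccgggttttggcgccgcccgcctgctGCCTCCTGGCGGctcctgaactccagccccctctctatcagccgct

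CDK9, the kinase that releases paused polymerase, is shown for an ETS core at an anchor lacking FLI1 (chr9:127785784-127786033, plus strand, capitals mark the ETS core). RXRA, the retinoid X receptor alpha, is shown as the promoter of the widest of the 253 anchors (chr9:134326205-134326454, plus strand), and neither core was found in its 250 bases.
CDK9: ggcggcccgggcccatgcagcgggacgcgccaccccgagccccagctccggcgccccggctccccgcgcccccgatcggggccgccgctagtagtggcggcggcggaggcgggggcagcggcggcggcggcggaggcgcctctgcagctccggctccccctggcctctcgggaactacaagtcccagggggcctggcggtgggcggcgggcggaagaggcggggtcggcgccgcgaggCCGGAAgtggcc
RXRA: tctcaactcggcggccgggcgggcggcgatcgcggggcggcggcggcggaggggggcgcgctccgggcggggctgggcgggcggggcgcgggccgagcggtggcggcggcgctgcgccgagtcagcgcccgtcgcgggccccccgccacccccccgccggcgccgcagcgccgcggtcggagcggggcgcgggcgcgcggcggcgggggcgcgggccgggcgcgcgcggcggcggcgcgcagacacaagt

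The promoters of both sets were rich in G and C. Their median GC content was 66.7% at anchors with the CTCF flag and 69.3% at anchors without it, against 58.3% over RefSeq promoters, and the median number of CpG dinucleotides was 26, 29 and 14. The GGGCGG box bound by SP and KLF factors, on either strand, stood in 72 of 96 and 46 of 57 promoters, against 44.6% of RefSeq promoters. A TATAAA box, on either strand, was found in 3 of 96 (3.12%) and 1 of 57 (1.75%), against 3264 of 27305. The motif of NRF1, GCGC, any 2 bases, GCGC, was found in 12.5% and 10.5%, against 8.78%, and CCAAT on either strand in 35.4% and 40.4%, against 35.7%.

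Anchors with the CTCF flag were wider and carried more loops than anchors without it. Their median width was 8501.5 bp (quartiles 5993 and 13846), against 6129 bp (3890 and 8084) without the flag. The median was 5437 bp at the other 881 anchors of the differential table and 3590 bp at the other 16852 anchors of high-confidence loops. Anchors over 10 kb made up 59 of 144 with the flag (41.0%) and 13 of 109 without it (11.9%), and anchors under 4 kb made up 12 (8.33%) and 29 (26.6%). The ranges overlapped nearly throughout, at 1680 to 33641 bp with the flag and 2070 to 42655 bp without it. The flag is yes or no per anchor, so a wider anchor may have had more chances to carry it, which was not tested.

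Loops per anchor followed the same order. Anchors with the CTCF flag had a median of 7 high-confidence loops (quartiles 4 and 12.25), against 5 (3 and 7) without the flag, 4 at the other anchors of the differential table and 1 at all other anchors. 10 or more loops were found at 51 anchors with the flag (35.4%) and at 13 without it (11.9%), and a single loop at 11 and 13. PETs summed over all pairs of an anchor and all 4 libraries had a median of 419.5 with the flag, 280 without it, 264 at the other anchors of the differential table and 138 at all other anchors.

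Per kb of anchor the order of the sets did not hold. The medians were 0.84 loops per kb with the CTCF flag and 0.86 without it, and 47.5 and 51.7 PETs per kb, while the other anchors of the differential table had 0.78 loops and 52.3 PETs per kb and all other anchors 0.49 and 40.1. Width went with loops at a Spearman rho of 0.64 over the 144 anchors with the flag and 0.59 over the 109 without it, where anchors share libraries and a wider anchor can collect more PETs. Within width classes the medians with and without the flag were 2.5 and 3 loops under 4 kb, 4 and 5 at 4 to 6 kb, 5.5 and 5.5 at 6 to 8 kb, 9.5 and 7 at 8 to 12 kb, and 14 and 12 over 12 kb. The class of 8 to 12 kb held 28 and 18 anchors and that over 12 kb 47 and 11. Without chromosome 9, a choice made after seeing the data, the medians were 10 and 7 at 8 to 12 kb (23 and 13 anchors) and 11 and 10.5 over 12 kb (37 and 8 anchors). Anchors under 10 kb had medians of 5 loops with the flag and 4 without it.

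**Figure D1:**
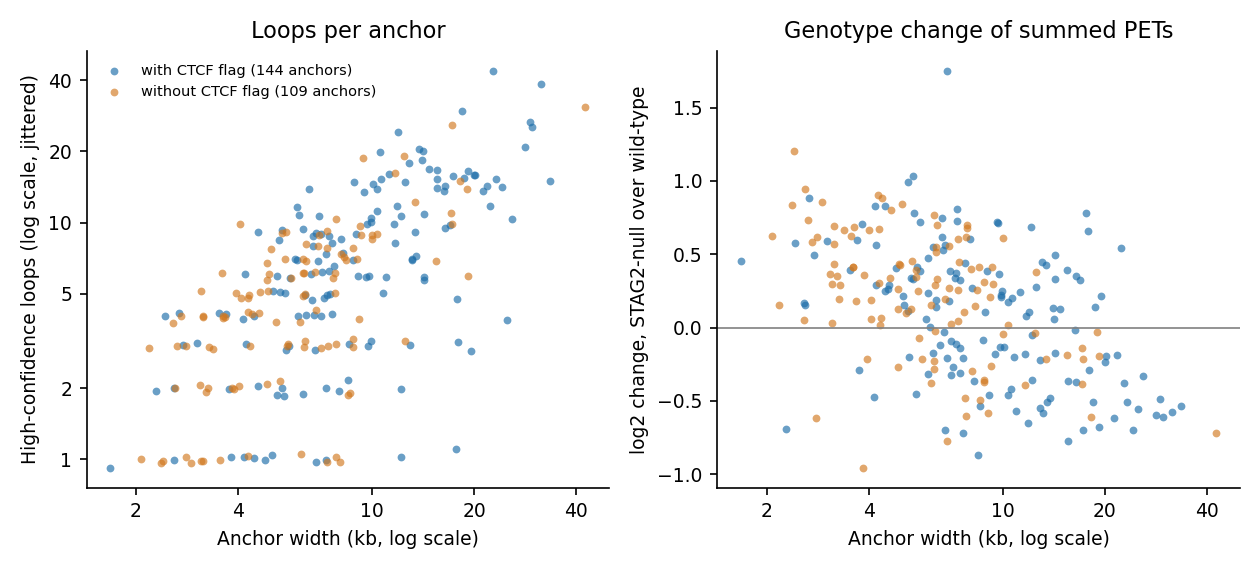
Left, high-confidence loops per anchor against anchor width (both log scale, loops jittered); right, fitted log2 change of summed PETs, STAG2-null over wild-type, against anchor width. Each point is an anchor, blue with the CTCF flag (144) and orange without it (109): loops increase with width in both sets, and the log2 changes of the narrowest anchors lie mostly above 0.

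Neighbouring kinds of anchor were set beside them. Active promoter anchors with FLI1 had a median width of 15972 bp and 12.5 loops where CTCF was flagged (22 anchors) and 6294 bp and 7 loops where it was not (9 anchors). Distal H3K27ac anchors lacking FLI1, which carry no promoter flag, had 7138.5 bp and 6 loops with the CTCF flag (112 anchors) and 5654 bp and 4 loops without it (135 anchors). The 41 promoter anchors lacking H3K27ac had a median of 7328 bp and 6 loops. These are medians with no test, since anchors are not replicates of a condition.

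Loops of anchors with the CTCF flag were also longer. The 1182 loops with only flagged anchors of the set had a median length of 61.9 kb (quartiles 22.6 and 145.7), against 33.5 kb (15.0 and 77.0) for the 569 loops without the flag and 22.9 kb for the other 20889 high-confidence loops. The 40 loops that joined an anchor of each kind had a median of 95.8 kb. Per anchor, the median loop length had a median of 55.5 kb with the flag and 26.4 kb without it. The other 881 anchors of the differential table stood at 30.6 kb. Distal H3K27ac anchors lacking FLI1 stood at 42.4 kb with the flag and 27.9 kb without it. All these medians per anchor take in every width. Among active promoter anchors lacking FLI1 that were under 10 kb wide, the medians were 31.2 kb with the flag (85 anchors) and 24.4 kb without it (96 anchors). The gap was thus smaller among these narrower anchors, and how much of it goes with width was not tested. Loops of 5 to 20 kb made up 22.3% of loops with the flag and 33.9% of loops without it, against 46.2% of other loops. PETs per loop had medians of 22 and 23, against 20 for other loops.

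With the CTCF flag, the 3 anchors with most loops lay on chromosome 9. The promoter anchor of C9orf50 and NTMT1, an N-terminal methyltransferase gene, spanned 22767 bp of hg19 (chr9:132362222-132384988), carried 45 loops and held 685 and 629 PETs in STAG2-null libraries, against 799 and 926 in wild-type libraries. Both STAG2-null libraries were below both wild-type libraries, with a log2 change of -0.38 ± 0.12 (SE of the fit). The anchor of TUBB4B, a beta tubulin gene, and 5 further genes had 38 loops, that of QSOX2, a sulfhydryl oxidase gene, 30, and that of SIRPA, which encodes the receptor for CD47, 25. QSOX2 held 316 and 269 PETs in STAG2-null libraries, against 394 and 445 in wild-type libraries (log2 -0.51 ± 0.12). SIRPA, on chromosome 20, held 277 and 273 PETs in STAG2-null libraries, against 413 and 433 (log2 -0.61 ± 0.12). In both, the genotypes did not overlap. With each chromosome scaled to its own total, the NTMT1 anchor stood at -0.04, QSOX2 at -0.17 and SIRPA at -0.38.

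Without the CTCF flag, the anchors with most loops were those of RXRA, PRRX2 and DAPK1, all on chromosome 9. RXRA spanned 42655 bp (chr9:137203756-137246410), carried 31 loops and held 399 and 263 PETs in STAG2-null libraries, against 504 and 598 in wild-type libraries. The STAG2-null libraries were lower and differed from each other more than the wild-type libraries did (475 ± 147 against 781 ± 16.5 normalised PETs, SD, n = 2 each, log2 -0.72 ± 0.12). The RXRA value was -0.43 without STAG2-null 2 and -0.39 with each chromosome scaled to its own total. PRRX2, a homeobox gene of mesenchyme, carried 26 loops over 17179 bp and held 373 and 341 PETs in STAG2-null libraries, against 448 and 492 (log2 -0.39 ± 0.12, and -0.05 with each chromosome scaled to its own total). DAPK1 carried 19 loops over 9368 bp and held 255 and 321 PETs in STAG2-null libraries, against 229 and 242 in wild-type libraries. It was higher in both STAG2-null libraries on a chromosome where most anchors of the set were lower (log2 0.30 ± 0.13, and 0.64 with chromosome scaling). Anchors of the set at lower coordinates of chromosome 9 ran from -0.21 to 0.39, and all those at higher coordinates were negative. Chromosome scaling uses a single factor for all of chromosome 9.

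The narrowest anchors carried few loops. SIRT4, a mitochondrial sirtuin gene, spanned 1680 bp with the CTCF flag, had 1 loop and held 48 and 43 PETs in STAG2-null libraries, against 31 and 36. Without the flag, LSM10, a subunit gene of the histone RNA processing particle, spanned 2070 bp, had 1 loop and held 32 and 31 PETs in STAG2-null libraries, against 23 and 18. AGTRAP, which encodes an angiotensin receptor partner, spanned 2375 bp, had 1 loop and held 22 and 33 PETs in STAG2-null libraries, against 15 and 16. All 3 were higher in both STAG2-null libraries, and the single loop of each was the differential loop by which the anchor entered the set. An anchor with the CTCF flag and no placed gene at chr12:49729674-49731959 spanned 2286 bp, had 2 loops and went the other way. It held 29 and 23 PETs in STAG2-null libraries, against 41 and 44 (log2 -0.69 ± 0.27).

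Read by width, the genotype values of both sets followed the same order. The median log2 change with and without the CTCF flag was 0.47 and 0.42 under 4 kb, 0.29 and 0.31 at 4 to 6 kb, 0.18 and 0.26 at 6 to 8 kb, 0.00 and 0.08 at 8 to 12 kb, and -0.24 and -0.20 over 12 kb. Other anchors of high-confidence loops ran from 0.03 under 4 kb to -0.12 over 12 kb. Leaving out chromosome 9 gave -0.05 and -0.16 over 12 kb, where 37 and 8 anchors remained. The median over all anchors of a set was 0.14 with the flag and 0.27 without it, and the sets differ in width as given above. It was 0.08 at the other 881 anchors of the differential table and 0.01 over all 17105 anchors. Distal H3K27ac anchors lacking FLI1 had the same order, at 0.03 with the flag and 0.22 without it. So did active promoter anchors with FLI1, at -0.03 and 0.29. With each chromosome scaled to its own total the sets stood at 0.08 and 0.15, against 0.09 at the other 881 anchors.

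In edgeR's quasi-likelihood test on summed PETs, with Benjamini-Hochberg adjustment over 17105 anchors and a threshold of 0.05, 32 of the 253 anchors were called higher in STAG2-null cells and 28 lower, while 2.06% of all anchors were called higher and 2.99% lower. With the CTCF flag 14 were higher and 22 lower, and without it 18 were higher and 6 lower. Since the genotype contrast chose the anchors, nothing is read from these counts. They became 9 higher and 14 lower without STAG2-null 2, 6 and 4 without wild-type 1, and 4 and 9 without wild-type 2, and with each chromosome scaled to its own total 11 and 6. Libraries of the genotypes did not overlap, STAG2-null higher, at 67 of 144 anchors with the flag and 59 of 109 without it, and STAG2-null lower at 49 and 22, where 24.1% of all anchors fell on each side.

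Summed over a whole set, the share of a library differed little between genotypes. Anchors with the CTCF flag held 2.58% and 2.49% of the PETs in STAG2-null libraries, against 2.64% and 2.58% in wild-type libraries. Anchors without it held 1.46% and 1.45% in STAG2-null libraries, against 1.35% and 1.31% in wild-type libraries. The log2 ratio of the genotype means was -0.04 with the flag and 0.13 without it. The log2 ratio of the sets, with over without the flag, was 0.82 and 0.78 in STAG2-null libraries, against 0.96 and 0.98 in wild-type libraries. The genotypes did not overlap, and the difference of the means was -0.17. No test is given, since the genotype contrast chose the anchors. The same difference was -0.11 with the loops of the differential table left out of the sums and -0.13 with each chromosome scaled to its own total. It was -0.16 without chromosomes 7, 9 and 19, and -0.20 without chromosome 9, 2 choices made after seeing the data. Fewer cells with a contact and fewer contacts per cell cannot be told apart in such bulk libraries.

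By length, the short loops without the CTCF flag stood highest in STAG2-null libraries. The 264 loops of 5 to 20 kb with the flag held 2934 and 3001 PETs in STAG2-null libraries, against 2512 and 2754 in wild-type libraries, a log2 ratio of 0.16 after scaling. The 193 loops of that length without the flag held 2155 and 2406 PETs in STAG2-null libraries, against 1629 and 1699 (log2 0.43), and other high-confidence loops of that length stood at 0.11. With the loops of the differential table left out, the 3 values were 0.10, 0.12 and 0.10, and the median fitted log2 change of the remaining loops was 0.06, 0.21 and 0.11. The loops left out had been picked by the genotype contrast itself, and of the 56 without the flag 52 were stronger in STAG2-null cells. Without chromosomes 7, 9 and 19, but with the loops of the differential table kept in, the log2 ratios were 0.15, 0.48 and 0.10.

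Longer loops with the CTCF flag were lower in STAG2-null libraries, at log2 ratios of -0.18 for 20 to 50 kb, -0.26 for 50 to 100 kb and -0.31 for 100 to 200 kb. Other high-confidence loops of these lengths stood at -0.09, -0.20 and -0.13. The 267 loops of 100 to 200 kb with the flag held 1412 and 1462 PETs in STAG2-null libraries, against 1650 and 1877 in wild-type libraries, and stayed at -0.25 with the loops of the differential table left out. Loops without the flag stood at -0.08, -0.14 and -0.11, and at -0.05, -0.02 and 0.20 without chromosomes 7, 9 and 19. Over 200 kb, 174 loops with the flag held 990 and 1025 PETs in STAG2-null libraries, against 983 and 1099 in wild-type libraries (log2 -0.06, and 0.12 without those chromosomes). At the same length, 40 loops without the flag held 136 and 145 PETs in STAG2-null libraries, against 172 and 188 (log2 -0.38), where other loops stood at 0.11. Of these 40, 10 lay outside chromosomes 7, 9 and 19, and those stood at 0.16.

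**Figure D2:**
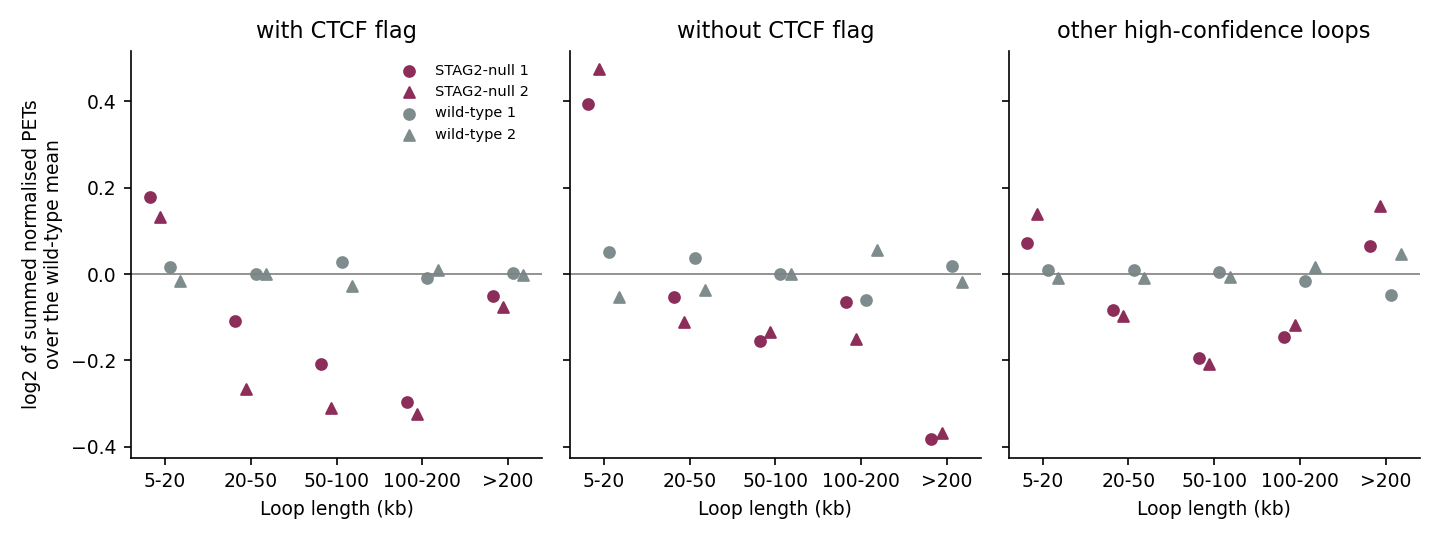
Summed normalised PETs of loops in 5 length classes (kb), as log2 over the wild-type mean, for loops with the CTCF flag, loops without it and all other high-confidence loops. Purple points are STAG2-null libraries and grey points wild-type libraries (circles library 1, triangles library 2): loops of 5 to 20 kb lie above 0 in STAG2-null libraries in each panel, highest without the flag.

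Of the 248 loops of these anchors in the differential table, 144 were stronger in STAG2-null cells and 104 in wild-type cells, by the authors' deposited table. With the CTCF flag the split was 71 and 71, and without it 63 and 25. The 18 loops that joined an anchor of each kind split 10 and 8. Under 20 kb it was 38 and 17 with the flag and 52 and 4 without it, and at 20 kb and over 33 and 54 with the flag and 11 and 21 without it. The other 402 loops of the table split 137 and 63 under 20 kb and 69 and 133 at 20 kb and over. Loops stronger in STAG2-null cells had a median length of 16.6 kb with the flag and 10.2 kb without it, against 45.1 and 41.0 kb for loops stronger in wild-type cells. When chromosomes 7, 9 and 19 were left out, the split under 20 kb was 21 and 9 with the flag and 30 and 2 without it.

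**Figure D3:**
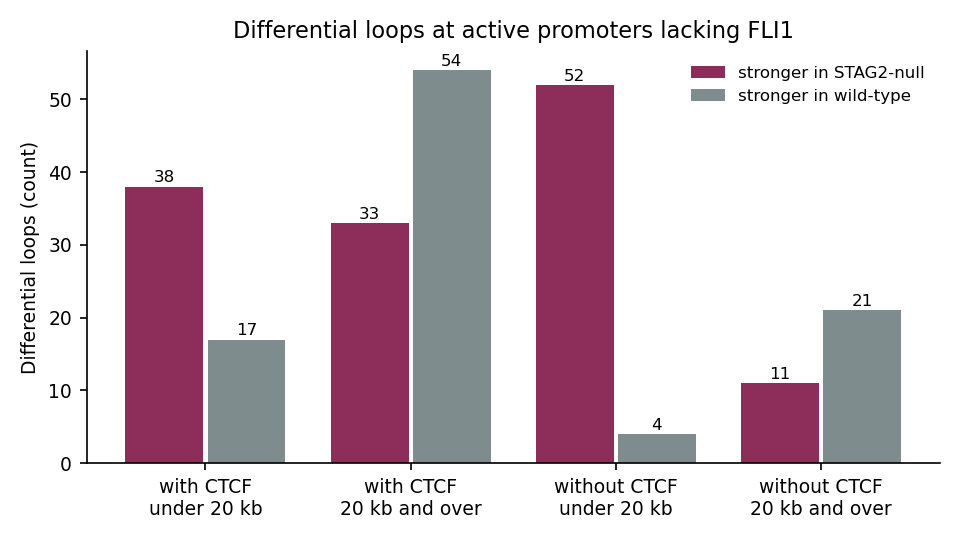
Loops of the authors' differential table at active promoter anchors lacking FLI1, counted by CTCF flag and loop length; purple bars are loops stronger in STAG2-null cells and grey bars loops stronger in wild-type cells. Under 20 kb, 52 loops without the flag were stronger in STAG2-null cells and 4 in wild-type cells. The 18 loops that joined an anchor with the flag to one without it are not shown.

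On several chromosomes, the contacts of the whole chromosome differed in the same direction as these anchors. On chromosome 9, 4 loops of the table at these anchors were stronger in STAG2-null cells and 39 in wild-type cells, the median log2 change of the 33 anchors was -0.39, and the log2 ratio of all PETs of the chromosome was -0.30. On chromosome 7 the split was 27 and 2, the anchor median 0.34 and the chromosome 0.26. On chromosome 19 it was 28 and 2, with 0.46 and 0.25, and on chromosome 16 it was 8 and 0, with 0.40 and 0.33. The anchor median and the chromosome ratio had opposite signs on chromosome 17 (0.05 and -0.08, 20 anchors), chromosome 11 (0.11 and -0.07, 15 anchors), chromosome 8 (-0.27 and 0.01, 7 anchors), chromosome 14 (-0.56 and 0.04, 3 anchors) and chromosome 10 (-0.21 and 0.09, 1 anchor). On chromosome 1 the split of 22 and 9 stood beside a chromosome ratio of 0.08 and an anchor median of 0.39. Anchors with the flag made up 20 of 33 on chromosome 9 and 10 of 31 on chromosome 7, so the sets were spread unequally over the chromosomes. With each chromosome scaled to its own total, 12 of the 60 called anchors were still called. Such scaling uses a single factor per chromosome and does not follow differences along it.

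**Figure D4:**
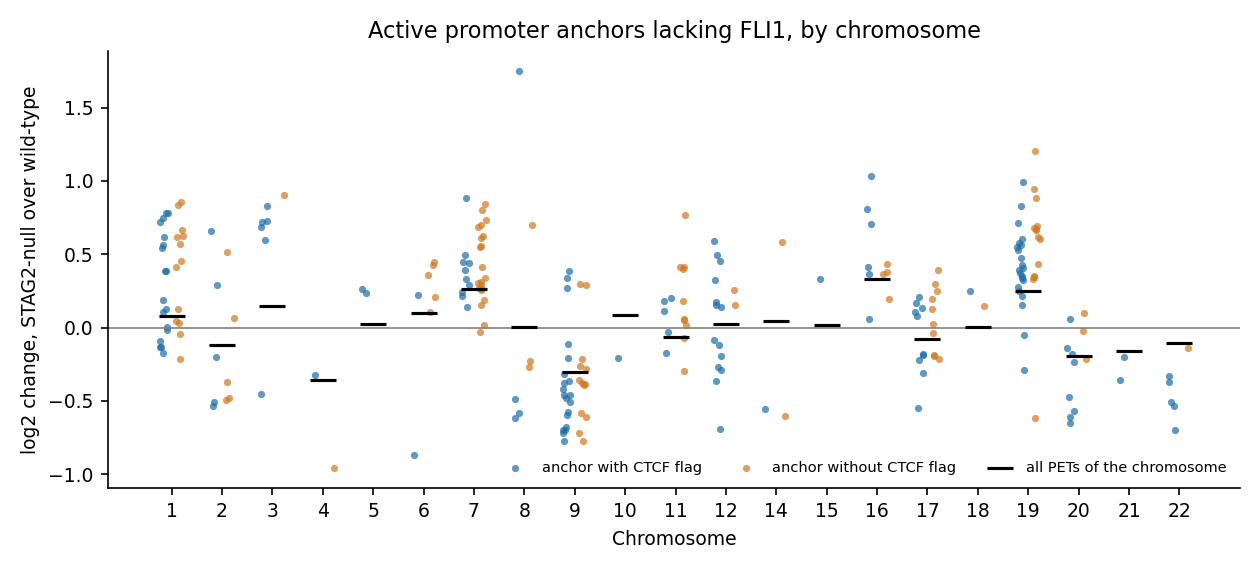
Fitted log2 change of summed PETs, STAG2-null over wild-type, for each of the 253 anchors by chromosome, blue with the CTCF flag and orange without it; black bars give the log2 ratio of all PETs of the chromosome. Anchors of chromosome 9 lie mostly below 0 and those of chromosomes 7, 16 and 19 mostly above, on the side of their chromosome's bar.

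Anchors with the largest differences were named where their PETs summed to at least 100 and the genotypes did not overlap. With the CTCF flag, CARM1, an arginine methyltransferase gene on chromosome 19, held 65 and 97 PETs in STAG2-null libraries, against 35 and 47 in wild-type libraries. Its log2 change was 0.99 ± 0.21, and 0.78 with chromosome scaling. ADAT1, a tRNA deaminase gene on chromosome 16, held 50 and 54 PETs in STAG2-null libraries, against 31 and 20 (log2 1.03 ± 0.26, 0.74 with chromosome scaling and 0.65 without wild-type 2). MOSPD3 on chromosome 7 held 84 and 83 PETs in STAG2-null libraries, against 49 and 42 (log2 0.88 ± 0.21, and 0.66 with chromosome scaling). These 3 anchors spanned 2674 to 5407 bp, under the median width of their set, and carried 2 to 4 loops.

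Without the CTCF flag, USE1, a gene of vesicle transport, held 49 and 39 PETs in STAG2-null libraries, against 19 and 27 in wild-type libraries (log2 0.95 ± 0.28). An anchor with no placed gene at chr19:12791586-12793985 held 38 and 40 PETs, against 14 and 20 (log2 1.20 ± 0.30). Both lay on chromosome 19, and with that chromosome scaled to its own total they stood at 0.73 and 0.99.

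On the lower side, VAV2, a guanine nucleotide exchange factor gene with the CTCF flag, held 159 and 145 PETs in STAG2-null libraries, against 241 and 284 in wild-type libraries (log2 -0.77 ± 0.14). TOR2A, a torsin ATPase gene, held 118 and 86 PETs in STAG2-null libraries, against 163 and 175 (log2 -0.72 ± 0.15). Both lie on chromosome 9, and with that chromosome scaled to its own total they stood at -0.44 and -0.38. Off that chromosome, DACT2, a modulator of Wnt signalling, held 22 and 23 PETs in STAG2-null libraries, against 40 and 43 (log2 -0.87 ± 0.28). MSX1, a homeobox gene without the CTCF flag on chromosome 4, held 33 and 16 PETs in STAG2-null libraries, against 52 and 44 (log2 -0.96 ± 0.27). The MSX1 value was -0.51 without STAG2-null 2 and -0.57 with chromosome scaling.

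**Figure D5:**
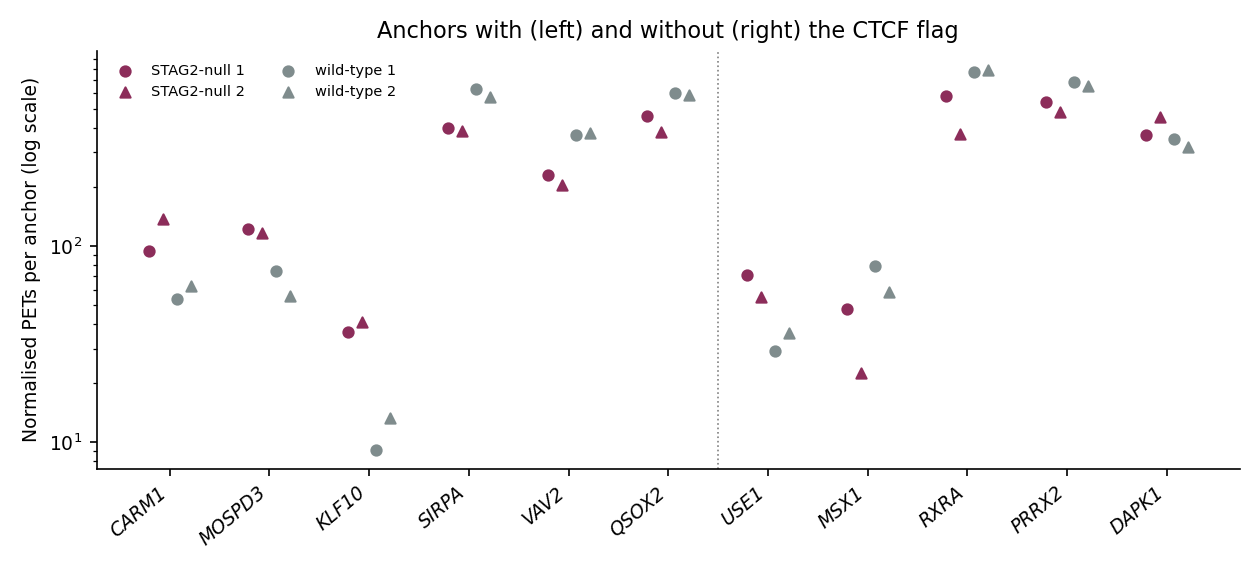
Normalised PETs summed per anchor (log scale) at 11 promoter anchors, 6 with the CTCF flag on the left and 5 without it on the right; purple points are STAG2-null libraries and grey points wild-type libraries (circles library 1, triangles library 2). The genotypes do not overlap at any of the 11, and RXRA, PRRX2, QSOX2 and SIRPA, which hold the most PETs, lie lower in STAG2-null libraries.

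Of 33 homeobox and developmental transcription factor genes listed, 6 were placed at these anchors, where 2 were called higher and 2 lower. Of the 253 anchors, which the genotype contrast chose, 12.6% were called higher and 11.1% lower. Over all anchors of high-confidence loops, 5.05% were called in either direction. KLF10, a Krüppel-like repressor gene that TGF-beta induces, held 25 and 29 PETs in STAG2-null libraries, against 6 and 10 in wild-type libraries (log2 1.75 ± 0.39, CTCF flag). MEIS1, a homeobox cofactor of HOX proteins, held 114 and 147 PETs in STAG2-null libraries, against 72 and 95 (log2 0.66 ± 0.17, CTCF flag). RXRA and MSX1, both without the flag, were the 2 called lower. DLX5 had a log2 change of 0.50 ± 0.19 and HOXB13 one of 0.13 ± 0.13, and neither passed the threshold. The list was chosen with results of these data known, as were all lists here.

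The other lists met these anchors at few placed genes. Listed genes at the 86 of 253 anchors without a placed gene could not be counted in any list. ETV6 was the 1 of 21 EWS-FLI1 activated genes (log2 0.26 ± 0.17, not called), and NR2F2, an orphan nuclear receptor gene, the 1 of 19 repressed or mesenchymal genes (0.33 ± 0.17, not called). Of 30 cell cycle genes CDC20 was placed (-0.17 ± 0.15, not called). Of 25 chromatin genes CARM1 was called higher. Of 27 signalling genes, ROR1, a receptor tyrosine kinase-like gene, was called higher (0.75 ± 0.22, and 0.42 without STAG2-null 2), VAV2 and DACT2 were called lower, and ID1 stood at -0.02 ± 0.19. Of 20 cytoskeleton and housekeeping genes, TUBB4B was called lower (-0.58 ± 0.12, at an anchor of 6 genes on chromosome 9). With chromosome scaling it stood at -0.24 and was not called (adjusted p = 0.177 in edgeR). TUBB stood at 0.22 ± 0.15. None of 18 genes of the cohesin and loop machinery was placed.

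Single loops carried few PETs, with a median of 22 over 4 libraries. By the same edgeR test, adjusted over 22680 loops, 5 of the 1791 loops were called higher in STAG2-null cells and 2 lower, while 0.0309% of all loops were called higher, 0.022% lower and 0.0529% either way. All 7 loops were in the differential table, and with plain library totals, with DESeq2, or without STAG2-null 2, wild-type 1 or wild-type 2, none was called.

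A 684-kb loop of MEIS1 held 5 and 15 PETs in STAG2-null libraries and none in either wild-type library. With the wild-type group set to a floor of 3 PETs, the ratio of scaled sums was 6.59. The exact 95% binomial lower limit, from the counts without that floor, was 4.88. A 154-kb loop of KLF10 held 14 and 13 PETs in STAG2-null libraries, against 2 and 1 (ratio of scaled sums 8.90, 95% interval 2.74 to 45.8). A 13.1-kb loop on chromosome 19, which joined an anchor with the CTCF flag to one without it, held 13 and 9 PETs in STAG2-null libraries, against 1 and 0 (ratio 21.8, 3.52 to 898). These intervals cover counting error only, at loops that the genotype contrast had chosen.

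Loops with more PETs differed by less. An 11.6-kb loop without the CTCF flag from chr7:99681986-99693887 held 82 and 79 PETs in STAG2-null libraries, against 36 and 42 in wild-type libraries (log2 1.03 ± 0.23). A 12.7-kb loop from chr11:62605688-62611475 held 49 and 45 PETs in STAG2-null libraries, against 22 and 15 (log2 1.32 ± 0.30). On the lower side, the 105-kb loop of RXRA held 11 and 2 PETs in STAG2-null libraries, against 22 and 28 (log2 -1.94 ± 0.44, and -1.13 without STAG2-null 2), and the 102-kb loop of the TUBB4B anchor held 1 and 4, against 17 and 17 (log2 -2.72 ± 0.59). The genotypes did not overlap at these 4 loops.

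The loops with most PETs were not among the called ones, apart from the 11.6-kb loop on chromosome 7 given above. Those of FKBP9, RXRA and SIRPA below were in the authors' differential table, and those of PKP1 were not. A 16.8-kb loop of PKP1, a plakophilin gene of desmosomes, held 69 and 85 PETs in STAG2-null libraries, against 61 and 61 in wild-type libraries, and a second loop of the same promoter, at 18 kb, held 63 and 85, against 46 and 64. The genotypes overlapped at the second loop of PKP1 before but not after scaling to library size. A 26.9-kb loop of FKBP9 on chromosome 7, a prolyl isomerase gene, held 68 and 67 PETs in STAG2-null libraries, against 44 and 42. The 31.6-kb loop of RXRA held 50 and 22 PETs in STAG2-null libraries, against 59 and 76, and the 29.1-kb loop of SIRPA 41 and 35, against 64 and 61.

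Further loops of at least 20 PETs differed at small counts and were not called, with adjusted p from 0.0599 to 0.279 in edgeR. They were named for their large changes, and all were in the differential table. Their 95% intervals cover counting error only, and nothing is read from an interval that leaves out 1. CRYAB, which encodes alpha-B crystallin, and DIXDC1 shared a loop of 12.3 kb without the CTCF flag, with 9 and 12 PETs in STAG2-null libraries, against 1 and 1 (ratio 10.4, 2.54 to 91.3). STK40, a pseudokinase gene, had a 9.32-kb loop with 10 and 8 PETs in STAG2-null libraries, against 2 and 1 (5.93, 1.73 to 31.4). B3GNT9, a glycosyltransferase gene, had a 6.90-kb loop with the flag that held 10 and 11 PETs in STAG2-null libraries, against 1 and 2 (6.92, 2.07 to 36.2). A 7.78-kb loop of SEPT5, a septin gene, held 2 and 1 PETs in STAG2-null libraries, against 6 and 12 in wild-type libraries, and was 6.07-fold lower (1.77 to 32.2). A 53.9-kb loop of STIM2, a calcium sensor gene, held 1 and 3 PETs, against 8 and 11 (log2 -2.19 ± 0.69).

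94 loops joined a pair of the 253 anchors, promoter to promoter, with a median length of 47.1 kb and 25.5 PETs. The one between CIRBP, a cold-inducible RNA-binding protein gene, with MIDN, and C19orf24 (15.6 kb) held 58 and 47 PETs in STAG2-null libraries, against 31 and 32 in wild-type libraries. The 20.2-kb loop between ISG20L2 with RRNAD1 and MRPL24 with PRCC held 33 and 41 PETs in STAG2-null libraries, against 22 and 32. The 35.3-kb loop between RTN4R, the Nogo receptor gene, and DGCR6L held 16 and 11 PETs in STAG2-null libraries, against 22 and 30. The genotypes did not overlap at these 3 loops, with both directions present. They overlapped, after scaling to library size, at 3 others. A 14.8-kb loop at the anchor of CYP27B1, a vitamin D hydroxylase gene, and METTL1 held 25 and 32 PETs in STAG2-null libraries, against 24 and 24, and a 25.4-kb loop of SLC48A1, a heme transporter gene, held 25 and 13, against 22 and 30. The 35.6-kb loop between BOP1 with HSF1 and DGAT1 with SCRT1 held 21 and 12 PETs in STAG2-null libraries, against 22 and 18 in wild-type libraries. The loops named here were chosen from the 94 after their values were seen. The share without overlap over all high-confidence loops was not counted, so nothing is read from how many overlapped.

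The flags at the far anchors of differential loops were counted. Loops that joined a pair of the 253 anchors were left out, so no far anchor with a promoter and H3K27ac but no FLI1 was counted. That choice lowers the shares with a promoter or H3K27ac and raises the share with FLI1. Of 125 loops with a far anchor outside the 253 at anchors with the CTCF flag, 65 (52.0%) had CTCF, 47 (37.6%) H3K27ac, 13 (10.4%) FLI1 and 14 (11.2%) a promoter at the far anchor. Of 77 such loops at anchors without the flag, 33 (42.9%) had CTCF, 33 (42.9%) H3K27ac, 8 (10.4%) FLI1 and 9 (11.7%) a promoter. With the flag, CTCF at the far anchor was found in 30 of 61 loops stronger in STAG2-null cells (49.2%) and in 35 of 64 stronger in wild-type cells (54.7%). Without the flag the shares were 20 of 54 (37.0%) and 13 of 23 (56.5%), with no test.

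The authors' deposited table also gives a status of change per gene, whose contrast its header does not name. Of the 217 genes at these anchors, 5 were marked UP, 10 DN and 41 UNCH, and 161 had no status. The anchors of the UP genes BCL6, FAM43A, GADD45B and ROR1, all with the CTCF flag, had log2 changes of 0.69, 0.72, 0.53 and 0.75 in summed PETs, and that of ID1, without it, -0.02. BCL6 encodes a transcriptional repressor and GADD45B a stress-induced protein. Of the DN genes, 6 had anchors below 0, from ADRA1D, an adrenergic receptor gene, at -0.65 and SIRPA at -0.61 to ZBTB16 at -0.29, and 4 had anchors above 0, CEBPB at 0.06, IER5 at 0.42, DLX5 at 0.50 and AHCYL2 at 0.68. The median over the anchors of UNCH genes was 0.23. No test was made on so few genes, and the anchors were chosen by the contact contrast itself.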

How the data were processed

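SMC1-bound contacts came from 4 A673 libraries, 2 per genotype. The authors deposited, per library, the count of PETs for each pair of anchors, and a table of high-confidence loops whose summed counts equalled the per-library counts at 100% of loops. Per the file headers, their table of 650 differential loops holds a log2 fold change, which runs as wild-type over STAG2-null, an adjusted p-value and the flags per anchor. The submitters' processing notes name HiC-Pro (no version) and hg19. Settings of the loop caller and the source of the flags: not given in the sources used here.

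PETs were summed over all pairs of an anchor and fitted, as were loops, with edgeR 4.0.16 in R 4.3.3 (quasi-likelihood test on genotype, TMM factors, library totals over all pairs, Benjamini-Hochberg over all 17105 anchors or 22680 loops, threshold 0.05), which was tested on simulated data. Normalised PETs are per TMM-scaled library, on a scale of 1000000. The exact permutation test planned for set sums is not reported, since the contrast chose the anchors and 2 libraries against 2 cannot go below 0.333. DESeq2 1.42.0, plain totals, chromosome scaling, the replicate block and leaving out libraries were tried. Named anchors were, per CTCF set, those with most loops or PETs, the widest and narrowest, those with the largest change per direction, and listed genes; named loops were those with most PETs, the largest changes, and, chosen after their values were seen, the called ones and some that join a pair of the anchors. Some genes that this rule names are not reported here. The anchors, lists and tests were chosen with earlier results of these data known.

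Same-numbered libraries deviated together at a correlation of 0.0032 over 11864 loops, so the numbers were not taken as pairs.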

Additional observations from a re-analysis of the deposited data

How the results depend on the processing

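With 2 libraries per genotype and a median of 22 PETs per loop, single loops are limited by depth, and no permutation over libraries can pass 0.333. Anchors called higher numbered 32 and became 3 with DESeq2, 11 with chromosome scaling, 14 with high-confidence loops only, 14 with pairs of at least 20 kb, and 4 to 35 without 1 library. Anchors called lower numbered 28 and became 12 with DESeq2, 6 with chromosome scaling, 18 with pairs of at least 20 kb, and 4 to 28 without 1 library. DESeq2 gave no adjusted p for 151 of the 253 anchors. Of the 60 called anchors, 12 were kept under chromosome scaling and 51 with the replicate block, which called 27 and 24. Loops called higher numbered 5 and became 0 with plain totals (202 unadjusted), 0 with DESeq2 (34), 2 with chromosome scaling, 0 outside the differential table, and 0 to 1 without 1 library. Loops called lower numbered 2 and became 0 with plain totals (147), 0 with DESeq2 (23), 0 with chromosome scaling (103), 0 outside the differential table, 0 to 2 without 1 library, 4 with the replicate block and 4 among loops of at least 20 PETs.

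The ratio of medians with over without the CTCF flag was 1.4 for loops and 1.5 for PETs per anchor and became 0.971 and 0.919 per kb of anchor. The difference of -0.17 between genotypes in the log2 ratio of the sets became -0.24 with high-confidence loops only, -0.13 with chromosome scaling, -0.11 without loops of the differential table and -0.20 without chromosome 9 (chosen after seeing the data), and -0.19 to -0.15 without 1 library. Uncalled values near 0 changed sign. These were ALOXE3 with HES7 (-0.00526 with high-confidence loops only), CUEDC1 (0.00112 with plain totals, 0.0806 with chromosome scaling, 0.011 at 20 kb and over, -0.148 to 0.0735 without 1 library), REPIN1 with ZNF775 (0.00762 with plain totals, -0.184 to 0.117 without 1 library), ID1 (0.012 with plain totals, 0.205 with chromosome scaling, -0.139 to 0.0803 without 1 library), the 16.4-kb loop of NTMT1 (0.232 with chromosome scaling) and the loop between BOP1 and DGAT1 (-0.785 to 0.113 without 1 library). The cause was not tested.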
